A study of Homo sapiens with 8 samples.

Results

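The histone genes of the established pancreatic cancer cell line MIA PaCa-2 were followed by their H3K9ac and H3K27ac peaks, acetylated forms of histone H3 that mark active promoters and enhancers. Members were all genes named in the H3K9ac peak lists whose symbol began with HIST and a digit, H2AF, H3F3 or H1F. These were 54 of 12186 named genes. They held 41 of the 7141 astromal H3K9ac peaks (34 genes) and 80 of the 20326 stromal ones (50 genes). H3K27ac peaks were taken when their centre lay within 2 kb of the centre of a member H3K9ac peak, which gave 37 of 14489 astromal and 48 of 15093 stromal peaks. Peaks that belonged to 1 promoter were joined into a site, so a promoter shared by several genes counted once. The 54 genes had 56 of 13541 sites: 32 promoter sites of clustered genes (HIST names), 9 promoter sites of variant genes (H2AF, H3F3 and H1F names) and 15 distal sites, whose peaks lay over 2 kb from the named start and carry a histone name only because that gene was the nearest.

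Cells of both conditions grew as spheroids in a hydrogel of thiolated hyaluronan (Glycosil) linked by PEGDA (Extralink). In astromal cultures water took the place of the collagen-derived component, and the medium was DMEM with 2% FBS. In stromal cultures the gel also held Gelin-S, and the medium, with 2% FBS as well, had been conditioned for 48 hours by immortalized myofibroblasts grown from resected human pancreatic tumours. The gel and the medium changed together, so their parts cannot be told apart, and the cells are 1 line. Every mark was sequenced from 1 library per condition, 4 in all, so differences between conditions have no replicate check and no p-value. The design asks how the stromal setting goes with histone acetylation in the cancer cells.

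Histones package DNA, and each nucleosome holds a pair each of H2A, H2B, H3 and H4, while the linker histone H1 binds between nucleosomes. Clustered histone genes are short, mostly without introns, and lie together in a large cluster on chromosome 6 (HIST1) and smaller groups on chromosome 1, with HIST4H4 alone on chromosome 12. They are transcribed mainly in S phase, when newly made DNA is packaged, under the coactivator NPAT, and most of their mRNAs end in a stem-loop bound by SLBP instead of a poly(A) tail. Many H2A and H2B genes stand head to head and share a promoter. Variant genes lie elsewhere in the genome, mostly away from other histone genes, though H2AFJ neighbours HIST4H4. They make mostly polyadenylated mRNA and are largely expressed through the cell cycle. H3F3A and H3F3B both encode H3.3, and H2AFZ and H2AFV encode forms of H2A.Z. H2AFX encodes H2A.X of DNA damage signalling, and H2AFY and H2AFY2 encode macroH2A.

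Promoter sequences are shown for sites on which the comparisons below turn, taken from RefSeq on build GRCh38.p14, whereas all peak positions are on hg19. Of the 51 member genes with a promoter site, 45 matched a RefSeq promoter entry of 300 bases (250 before the start and 50 after it). Each of these, and all 35116 promoter entries, was searched on both strands for 3 motifs: the TATA box, written TATAAA, the CCAAT box, and the octamer ATTTGCAT, which is bound by the POU factor OCT1. A match describes the letters of this window only. TATAAA was in 24 of 36 clustered promoters (66.7%) and 4 of 9 variant promoters, against 11.5% of all entries. CCAAT was in 30 of 36 clustered promoters (83.3%) and 6 of 9 variant ones, against 34.6%. The 6 clustered promoters without it were those of the 6 H4 genes matched. The octamer was in 14 of 36 clustered promoters (38.9%), of which 7 were among 11 H2B, 6 among 10 H2A and 1 among 5 H3 genes, and in 1 of 9 variant promoters (H3F3B), against 1.77% of all entries. These counts are by gene and not by shared promoter. The windows of a head-to-head pair overlap, so 1 match can count for both genes. HIST1H2AG and HIST1H2AE, for example, held no octamer in the 150 bases before their own start, while the run shared with their H2B partner held 1. No other motif was searched, and a TATA box that reads on both strands is counted on each.

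The following runs belong to sites that were called between conditions in H3K9ac or found in 1 list. Pairs are given from start to start, and single genes by the 150 bases before their start on the strand named. They read 5′ to 3′, with matches to the 3 motifs on either strand in capitals.
HIST1H2AK/HIST1H2BN, chr6:27838376-27838568, plus strand: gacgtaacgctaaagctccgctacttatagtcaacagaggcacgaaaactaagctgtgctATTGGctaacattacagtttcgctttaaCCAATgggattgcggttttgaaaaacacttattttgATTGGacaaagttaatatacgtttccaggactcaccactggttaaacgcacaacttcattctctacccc
HIST1H2BJ/HIST1H2AG, chr6:27132796-27133042, plus strand: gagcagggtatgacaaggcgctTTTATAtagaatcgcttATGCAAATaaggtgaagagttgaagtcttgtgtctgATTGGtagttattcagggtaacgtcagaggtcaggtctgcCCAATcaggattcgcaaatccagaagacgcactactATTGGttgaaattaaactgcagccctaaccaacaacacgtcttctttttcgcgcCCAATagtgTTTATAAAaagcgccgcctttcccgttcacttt
HIST1H3D/H2BC7, chr6:26199294-26199515, plus strand: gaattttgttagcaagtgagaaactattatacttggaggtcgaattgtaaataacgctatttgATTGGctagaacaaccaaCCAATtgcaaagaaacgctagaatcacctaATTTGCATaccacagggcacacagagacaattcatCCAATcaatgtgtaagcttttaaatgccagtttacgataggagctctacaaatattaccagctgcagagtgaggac
HIST1H2AL, chr6:27865167-27865316, plus strand: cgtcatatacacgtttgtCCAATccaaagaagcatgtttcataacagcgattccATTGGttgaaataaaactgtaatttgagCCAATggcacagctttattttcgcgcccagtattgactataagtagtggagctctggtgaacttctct
H2AFJ, chr12:14774255-14774404, plus strand: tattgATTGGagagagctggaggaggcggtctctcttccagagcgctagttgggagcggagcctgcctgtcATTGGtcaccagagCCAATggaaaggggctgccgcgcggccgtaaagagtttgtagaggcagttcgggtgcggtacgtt

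The next runs belong to sites called higher in H3K27ac, with the H4 genes HIST1H4E and HIST4H4 for comparison, which hold none of the 3 motifs in these 150 bases.
HIST1H2BK, chr6:27146859-27147008, minus strand: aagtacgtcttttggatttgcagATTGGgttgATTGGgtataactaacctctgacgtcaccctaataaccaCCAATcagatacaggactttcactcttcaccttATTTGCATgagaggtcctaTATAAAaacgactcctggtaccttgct
HIST2H2AB, chr1:149887966-149888115, minus strand: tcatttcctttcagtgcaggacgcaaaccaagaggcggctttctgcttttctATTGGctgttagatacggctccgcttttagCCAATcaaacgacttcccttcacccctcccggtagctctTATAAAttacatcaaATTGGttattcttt
HIST1H4E, chr6:26204460-26204609, plus strand: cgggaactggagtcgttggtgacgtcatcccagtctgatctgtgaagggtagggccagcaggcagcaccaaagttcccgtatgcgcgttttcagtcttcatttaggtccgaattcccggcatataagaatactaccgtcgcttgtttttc
HIST4H4, chr12:14771132-14771281, minus strand: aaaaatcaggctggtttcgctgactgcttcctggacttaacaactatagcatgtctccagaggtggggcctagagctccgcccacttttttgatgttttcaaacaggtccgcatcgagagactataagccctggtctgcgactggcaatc

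H3K9ac was found in both lists at 26 of 41 histone promoter sites, in the stromal list alone at 12 and in the astromal list alone at 3. Over all 10245 promoter sites with H3K9ac the shares were 50.4% in both lists, 49.3% in the stromal list alone and 0.381% in the astromal list alone. Clustered sites (20 in both lists, 9 stromal alone, 3 astromal alone) and variant sites (6, 3 and 0) had like shares, with 62.5% and 66.7% in both lists. The stromal library was also deeper and had more of its tags in peaks: 7569604 against 3925277 tags, both estimated from the values, and 5.81% against 1.76% of tags in peaks. The median peak held 20 tags in the stromal and 9 in the astromal list, so a site missing from the astromal list may still carry the mark. Levels below are sums over the peaks of a site of the authors' tag counts, which are per 10000000 tags sequenced (normalised tags). In a bulk culture, fewer cells with a mark and less of the mark per cell cannot be told apart.

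**Figure D1:**
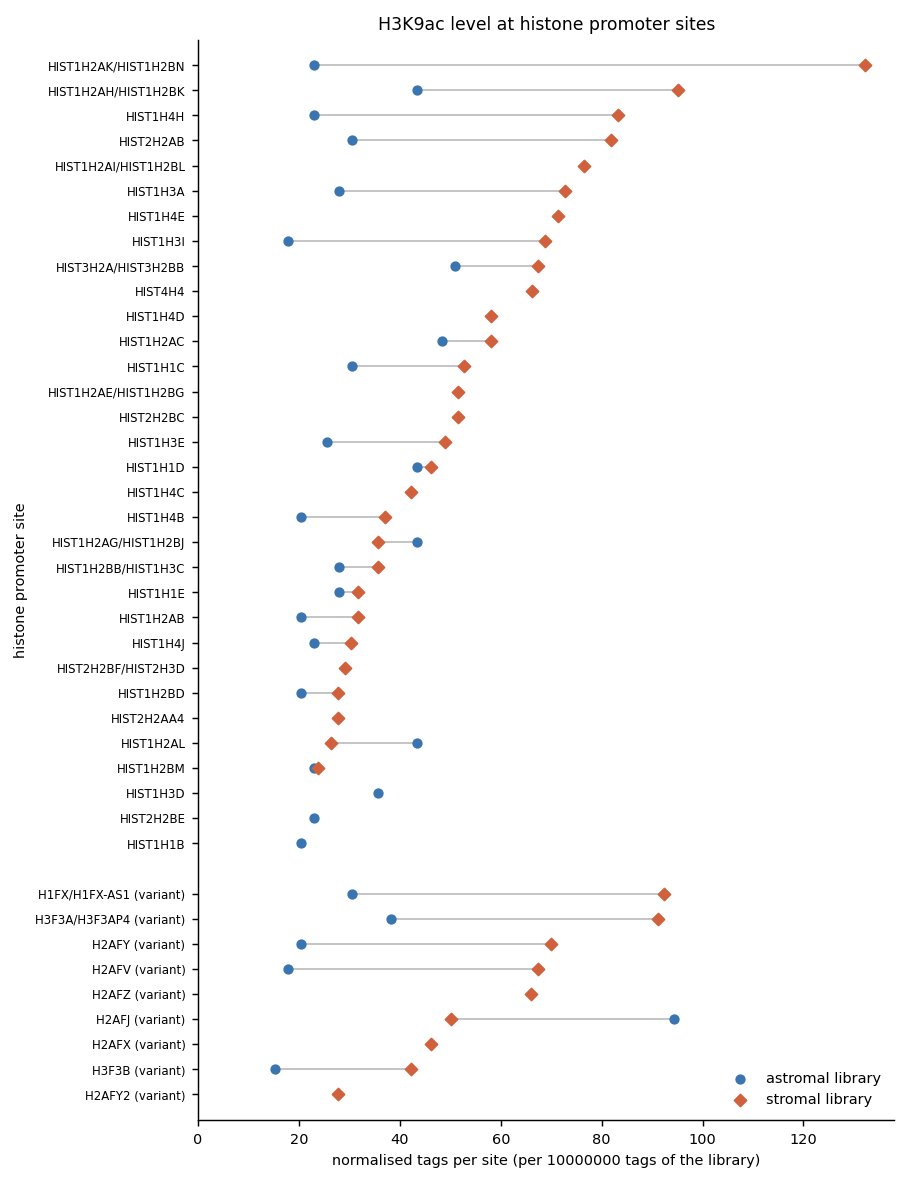
H3K9ac level (normalised tags per site, per 10000000 tags of the library) at the 41 histone promoter sites, clustered above and variant below. Blue circles are the astromal library, orange diamonds the stromal library, a grey line joins both, and a site with 1 symbol had a peak in that list alone; HIST1H2AK/HIST1H2BN reaches 132.2 in the stromal library and H2AFJ 94.3 in the astromal one.

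The 3 astromal-only sites were HIST1H3D, HIST2H2BE and HIST1H1B. HIST1H3D, a gene of canonical H3, had 35.7 normalised tags (14 tags) in 1 peak on chromosome 6 from 26199005 to 26199205, 416 bp downstream of its start. HIST2H2BE, an H2B gene of the chromosome 1 cluster, had 22.9 (9 tags). HIST1H1B, which encodes a linker histone, had 20.4 (8 tags), fewer than the median peak of its list, and is named because the count is small. Their share of histone promoter sites, 7.32%, stands beside the 0.381% of all promoter sites, yet it rests on 3 sites of 8 to 14 tags. With peaks joined over 2 kb in place of 1 kb HIST1H3D alone was left, since HIST2H2BE then joins HIST2H2AB, 1.2 kb away by their starts, and HIST1H1B joins HIST1H2AL, 2.3 kb away, both of which had stromal peaks.

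The 12 stromal-only sites ranged from 27.7 to 76.6 normalised tags. Highest was the pair HIST1H2AI and HIST1H2BL with 76.6 (58 tags in 2 peaks). The H4 gene HIST1H4E had 71.4 (54 tags in 2 peaks). HIST4H4, the lone H4 gene of chromosome 12, had 66.1 (50 tags) in 1 peak from 14923562 to 14923772 at its transcript end. H2AFZ, whose site also carries the non-coding LOC256880, had 66.0 (50 tags). HIST1H4D had 58.1, the pair HIST1H2AE and HIST1H2BG 51.5, HIST1H4C 42.3 and H2AFX 46.2. Of the 7 sites named for an H4 gene, 4 were in the stromal list alone and 3 in both. Of the 8 named for an H3 gene, variants included, 1 was stromal-only and 6 were in both lists. These are small counts beside the 49.3% of all promoter sites.

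HIST2 genes of chromosome 1 made up 3 of the 12: HIST2H2BC (51.5), which is annotated as a pseudogene, HIST2H2BF with HIST2H3D (29.1) and HIST2H2AA4 (27.7). Parts of this cluster exist in near-identical copies, among them HIST2H2AA3 and HIST2H2AA4, and how reads with several matches were handled is not given in the sources used here. Their values are therefore uncertain. Among variants, H2AFY2 had 27.7 (21 tags) in the stromal list alone.

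Where both libraries had H3K9ac, the stromal level was higher at 23 of 26 histone promoter sites before any centring, against 4878 of all 5160 promoter sites in both lists. Over all sites of both lists the median log2 ratio of stromal to astromal level was 0.97 (1.96-fold), and ratios were centred on it. A site was called when it differed by 2-fold or more after centring and when 0 lay outside the 95% interval, which is exact (Clopper-Pearson) and covers counting error only. By this rule 1 of 26 histone sites was called higher and 3 lower, against 4.61% higher and 3.45% lower of the 5160 promoter sites in both lists. Clustered sites had a median centred ratio of −0.43, with 6 of 20 above 0, but 0.54 without centring and −0.09 at the highest peak. Variant sites had a median of 0.56, with 5 of 6 above 0, but 0.19 at the highest peak. Over all promoter sites the median was 0.03, with 51.4% above 0.

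The site called higher was the promoter shared by HIST1H2AK and HIST1H2BN, an H2A and an H2B gene near the centromeric end of the HIST1 cluster. Its level was 22.9 normalised tags in the astromal library (9 tags in 1 peak) and 132.2 in the stromal library (100 tags in 3 peaks). The latter was the highest stromal level of any histone site. The centred log2 ratio was 1.55 (0.57 to 2.72). The peaks lay on chromosome 6 from 27804775 to 27807343, on both flanks of the pair, and the astromal peak lay at the transcript end of HIST1H2BN. The call depended on the join by starts, which was chosen after the data were seen. Joined by distance alone, the HIST1H2AK peaks formed a stromal-only site. The HIST1H2BN peaks then had 22.9 astromal (9 tags) and 41.0 stromal normalised tags (31 tags), and no histone promoter site was called higher. Its start-to-start run above holds CCAAT 3 times and neither TATAAA nor the octamer.

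The variant gene H2AFJ, a replication-independent H2A, was called lower. It had 94.3 normalised tags in the astromal library (37 tags in 3 peaks), the highest astromal level of any histone site, and 50.2 in the stromal library (38 tags in 1 peak). The centred log2 ratio was −1.88 (−2.57 to −1.19). The astromal peaks lay 554 bp before and 166 and 594 bp after the start, and the stromal peak lay 811 bp after it in the 3′ UTR of the single exon, on chromosome 12 from 14927976 to 14928186. HIST1H2AL, a single H2A gene, had 43.3 (17 tags in 2 peaks) and 26.4 (20 tags in 1 peak), a ratio of −1.69 (−2.69 to −0.66). The pair HIST1H2AG and HIST1H2BJ had 43.3 (17 tags in 2 peaks) and 35.7 (27 tags in 1 peak), a ratio of −1.25 (−2.18 to −0.29). That call was lost, at −0.33, when only peaks within 1 kb of a start were summed.

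Each of the 4 calls went with the number of peaks: the site called higher had more stromal than astromal peaks, and the 3 called lower had fewer. The same was seen at all 238 promoter sites called higher and at 68.0% of the 178 called lower. By the highest peak of each site no histone site was called in either direction, against 0.271% and 0.523% of all promoter sites. HIST1H2AK with HIST1H2BN then stood at 0.46, HIST1H2AL at −0.46, H2AFJ at −0.07 and HIST1H2AG with HIST1H2BJ at −0.03.

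**Figure D2:**
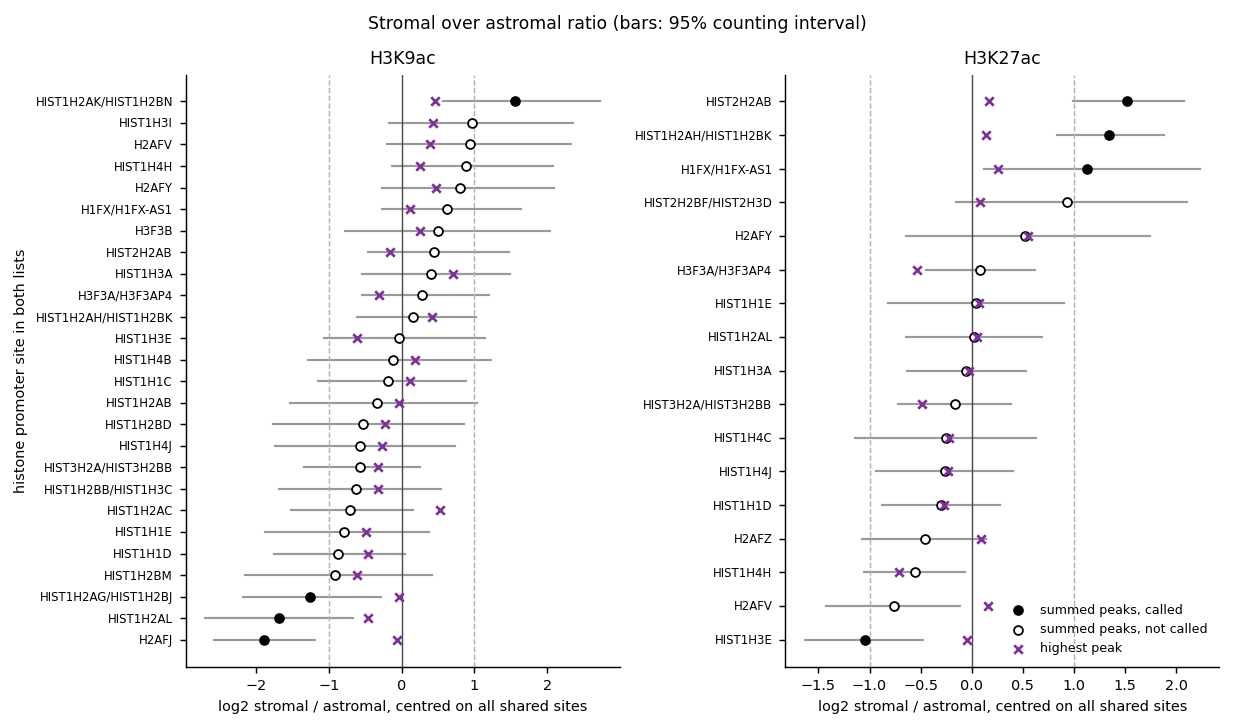
Centred log2 ratio of the stromal over the astromal level at histone promoter sites in both lists, for H3K9ac (left, 26 sites) and H3K27ac (right, 17 sites). Circles are ratios of summed peaks, filled where called, with 95% counting intervals as bars, and purple crosses are ratios at the highest peak; dashed lines mark 2-fold, and all crosses lie within them.

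Among the other variant genes, H1FX, which encodes a linker histone and shares its site with the antisense transcript H1FX-AS1, had 30.6 astromal and 92.4 stromal normalised tags (centred ratio 0.62). H3F3A had 38.2 and 91.2 (0.28), and the peaks in its intron 1 carried the name H3F3AP4, an H3.3 pseudogene that RefSeq places on another chromosome. H2AFY had 20.4 and 70.0 (0.81). H2AFV had 17.8 and 67.4 (0.94). H3F3B, the other H3.3 gene, had 15.3 and 42.3 (0.49). All 5 stood above the median shift of shared sites by summed peaks, and each interval included 0. H3F3A stood below it at the highest peak (−0.31), as did H1FX with peaks joined by distance alone (−0.13).

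Of the clustered sites not called, the highest stromal levels were those of HIST1H2AH with HIST1H2BK (43.3 astromal and 95.2 stromal), HIST1H4H (22.9 and 83.2), HIST2H2AB (30.6 and 81.9), HIST1H3A (28.0 and 72.7) and HIST1H3I (17.8 and 68.7). The other 8 sites without a linker histone gene or HIST3 ranged from 20.4 to 48.4 astromal and from 23.8 to 58.1 stromal normalised tags, with ratios from −0.92 to −0.03. The linker histone genes HIST1H1C (30.6 and 52.8), HIST1H1D (43.3 and 46.2) and HIST1H1E (28.0 and 31.7) had centred ratios of −0.18, −0.88 and −0.80. In the centromere-distal block of the HIST1 cluster, from HIST1H3A to HIST1H4H, 11 of 16 sites were in both lists, with a median ratio of −0.34 and 2 of 11 above 0. In the block at the centromeric end, from HIST1H2AI to HIST1H3I, 5 of 7 were in both lists with a median of −0.57, from −1.69 at HIST1H2AL to 1.55 at HIST1H2AK with HIST1H2BN. The HIST3 pair HIST3H2A and HIST3H2BB had 50.9 astromal and 67.4 stromal tags (−0.57).

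H3K9ac peaks of clustered genes lay farther downstream than usual. Their median position was 356.5 bp after the named start in the astromal list (28 peaks) and 403 bp in the stromal list (45 peaks), against 193 and 189 bp for all peaks within 2 kb of a start. At the end of an annotated transcript lay 28.6% and 31.1% of them, against 1.83% and 1.6% of all such peaks. Clustered genes are short, with the transcript end near the start. Variant genes, which are mostly longer, had medians of 145.5 and 248 bp over 8 and 15 peaks.

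**Figure D3:**
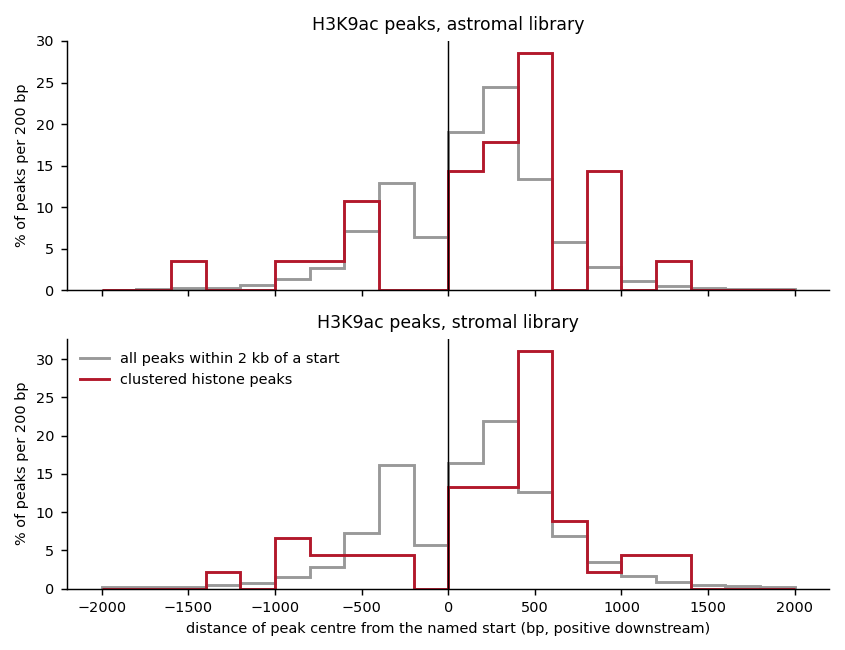
Distance of H3K9ac peak centres from the named start (bp, positive downstream) as the percent of peaks per 200 bp, for the astromal (upper) and stromal (lower) library. Red is clustered histone genes (28 and 45 peaks) and grey all peaks within 2 kb of a start; the red lines are highest past the start, between 400 and 600 bp.

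H3K27ac was missing from many clustered histone promoters that carried H3K9ac. It was found in both lists at 17 of 41 histone promoter sites, in the stromal list alone at 4, in the astromal list alone at 4 and in neither at 16. The corresponding shares of all promoter sites were 61.6%, 5.72%, 8.09% and 24.6%. Of the 32 clustered sites 15 (46.9%) had no H3K27ac peak in either list, and of the 9 variant sites 1 (H2AFY2). By condition, an H3K27ac peak stood at 11 of 23 clustered sites with astromal H3K9ac (47.8%) and at all 6 such variant sites, against 88.8% of all promoter sites with astromal H3K9ac. In the stromal lists it stood at 16 of 29 clustered (55.2%) and 5 of 9 variant sites (55.6%), against 67.4%.

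The sites without H3K27ac in either list included HIST1H2AK with HIST1H2BN, HIST1H2AG with HIST1H2BJ, HIST1H2AI with HIST1H2BL and HIST1H2AE with HIST1H2BG. Of the 6 clustered promoters named for both an H2A and an H2B gene, 4 had none, and the exceptions were HIST1H2AH with HIST1H2BK and the HIST3 pair. Counts by histone type overlap, since a shared promoter counts for each type it is named for. With these 4 pairs in both counts, 8 of 12 sites named for an H2B gene lacked H3K27ac, and 7 of 17 named for an H2A gene. So did 3 of 7 named for an H4 gene, 2 of 8 for an H3 gene and 1 of 5 for an H1 gene, variants included. Partner genes for which no peak was named were not counted. Such partners stood at HIST1H2AC (H2BC4), HIST1H3D (H2BC7), HIST1H2BM (H2AC14) and HIST2H2BE (H2AC20), all without H3K27ac. They also stood at HIST1H3A (H4C1), HIST2H2AA4 and HIST2H2BC (H2AC18 at both), which had H3K27ac.

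The H3K27ac caller asked for a peak to be at least 4-fold over the surrounding 10 kb, per the file headers, and clustered histone peaks lay close to that limit. The authors' fold over the local region had a median of 5.64 at 17 astromal and 4.74 at 27 stromal clustered peaks, against 7.64 and 7.575 at all peaks of promoter sites. It was below 5 at 7 of 17 (41.2%) and 17 of 27 (63.0%) of these peaks, against 11.9% and 13.8% of all. Variant peaks had medians of 6.0 (12 peaks) and 6.61 (9 peaks). The fold over input did not stand as low, with medians of 19.08 and 22.77 at clustered peaks against 26.79 and 18.75 at all. Starts of neighbouring histone sites lay as little as 1.2 kb apart, so the surrounding 10 kb can hold another histone promoter. The part of the local filter in the missing peaks was not tested, and a site without a peak here is not a measured absence of H3K27ac.

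**Figure D4:**
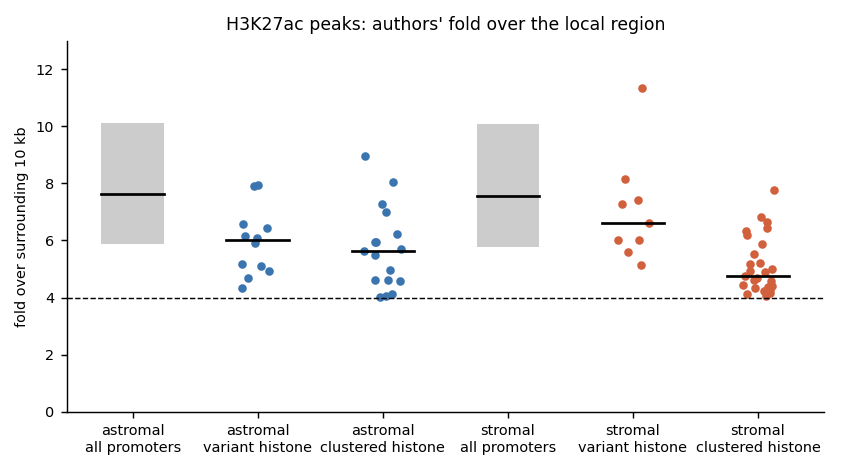
The authors' fold of H3K27ac peaks over the surrounding 10 kb, by library and gene class. Points are single histone peaks, black lines medians, and grey boxes the middle 50% of all peaks at promoter sites; the dashed line is the required 4-fold, and clustered peaks of the stromal library gather just above it with a median of 4.74.

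The sites found in 1 H3K27ac list held few peaks and often a low local fold. HIST1H1C had 37.2 normalised tags in the stromal list (64 tags), in a peak 1968 bp after its start that was 4.14-fold over the local region. HIST4H4 had 23.9 (41 tags, 4.17-fold). HIST2H2BC had 20.4 and HIST2H2AA4 18.0, each in 2 peaks. In the astromal list alone, HIST1H3I had 36.4 (49 tags, 4.59-fold), H2AFJ 26.8 (36 tags, 4.34-fold), H3F3B 15.6 (21 tags, 5.12-fold) and H2AFX 8.9 (12 tags, 6.09-fold). The highest peak was below 5-fold at 2 of 4 stromal-only and 2 of 4 astromal-only histone sites. Over all promoter sites found in 1 list this held for 76 of 586 and 68 of 829. At histone promoter sites in both lists it held for 5 of 17 in each library. The shares of all promoter sites in both lists were 3.34% astromal and 3.9% stromal. A low local fold was thus not limited to histone sites found in 1 list.

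**Figure D5:**
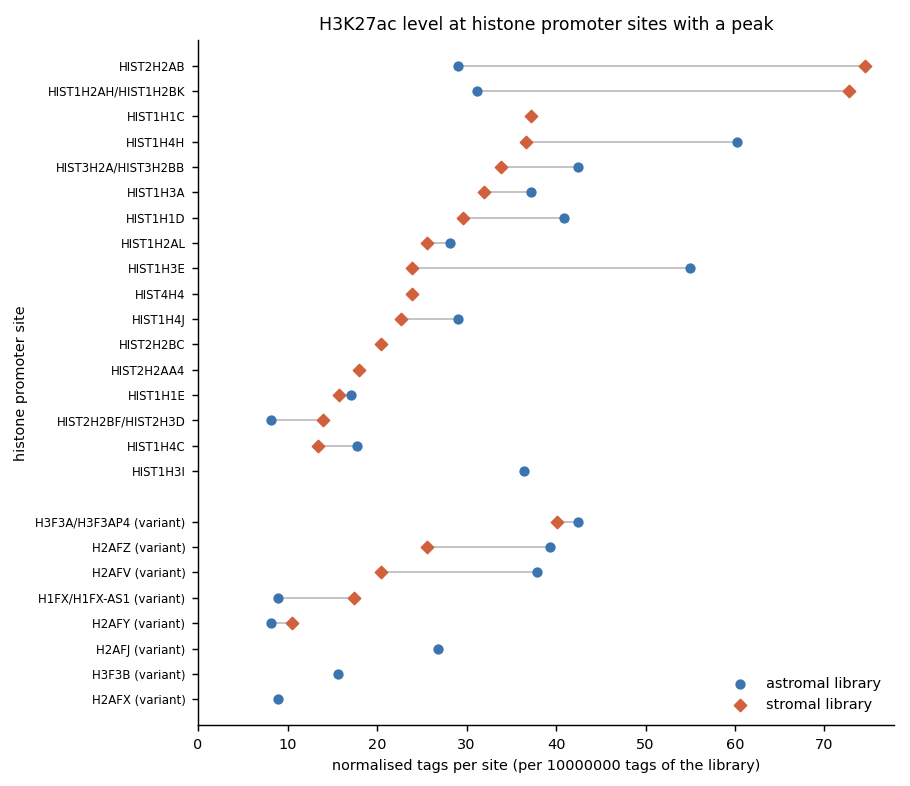
H3K27ac level (normalised tags per site, per 10000000 tags of the library) at the 25 histone promoter sites with a peak, clustered above and variant below. Blue circles are the astromal library and orange diamonds the stromal library, and a site with 1 symbol had a peak in that list alone; HIST2H2AB and HIST1H2AH/HIST1H2BK reach 74.5 and 72.7 in the stromal library and stand apart from the rest there.

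HIST4H4 and H2AFJ are neighbours, with starts 3.2 kb apart on chromosome 12, and their summed peaks differed in opposite senses in both marks. HIST4H4 went from no peak to 66.1 normalised tags in H3K9ac and from no peak to 23.9 in H3K27ac, astromal to stromal. H2AFJ went from 94.3 to 50.2 and from 26.8 to no peak, but its highest H3K9ac peak went from 33.1 to 50.2, a centred ratio of −0.07. Both H3K27ac peaks stood within 10 kb of each other and near the local limit, and the difference between these neighbours was not tested.

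Where both lists had H3K27ac, the median log2 ratio over all shared sites was −0.16 (0.894-fold), beside peak widths of 175 bp in the stromal and 197 bp in the astromal list. After centring on that median 3 of 17 histone promoter sites were called higher and 1 lower, against 4.86% and 6.45% of 6313 promoter sites. Median centred ratios were −0.11 for 12 clustered and 0.08 for 5 variant sites, against −0.02 for all promoter sites, and 8 of the 17 lay above 0, against 47.9%.

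The H2A gene HIST2H2AB had 29.0 astromal normalised tags (39 tags in 1 peak) and 74.5 stromal (128 tags in 3 peaks), a centred ratio of 1.52 (0.99 to 2.08). Its H3K9ac ratio, 0.45, was not called. The pair HIST1H2AH and HIST1H2BK, whose site also carries MIR3143, had 31.2 (43 tags in 1 peak) and 72.7 (125 tags in 3 peaks), a ratio of 1.35 (0.84 to 1.88). The third, H1FX with H1FX-AS1, had 8.9 (12 tags in 1 peak) and 17.4 (30 tags in 2 peaks), a ratio of 1.13 (0.12 to 2.23). HIST1H3E, an H3 gene, was called lower with 55.0 (74 tags in 2 peaks) against 23.9 (41 tags in 1 peak), a ratio of −1.04 (−1.63 to −0.48), while its H3K9ac ratio was −0.03.

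As in H3K9ac, the sites called higher had more and the site called lower had fewer stromal peaks. That also held for 97.7% of 307 higher and 93.6% of 407 lower calls over all promoter sites. At the highest peak none of the 4 was called: HIST2H2AB stood at 0.17, HIST1H2AH with HIST1H2BK at 0.14, H1FX at 0.25 and HIST1H3E at −0.05. The shares called over all promoter sites were then 0.317% and 0.776%.

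Other variant genes with H3K27ac in both lists were H3F3A (42.4 astromal and 40.1 stromal, ratio 0.08), H2AFZ (39.3 and 25.6, −0.46), H2AFV (37.9 and 20.4, −0.76) and H2AFY (8.2 and 10.5, 0.52). Among clustered genes not called, the highest stromal levels were those of HIST1H4H (60.2 and 36.6) and HIST3H2A with HIST3H2BB (42.4 and 33.8). The other 7 ranged from 8.2 to 40.9 astromal and from 13.4 to 32.0 stromal normalised tags, with ratios from −0.30 to 0.93. At the 14 histone sites with both marks in both lists, the ratios of H3K9ac and H3K27ac lay on the same side of 0 at 9 (64.3%), against 49.3% of 4275 promoter sites.

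At the 15 distal sites the median H3K9ac level was 22.9 astromal and 31.7 stromal normalised tags, against 28.0 and 51.5 at histone promoter sites. The median H3K27ac level, where present, was 33.1 and 25.9, against 29.0 and 23.9. H3K9ac was in both lists at 5 of the 15 and in the stromal list alone at 10, against 18.3% and 79.8% of all distal sites. None of the 5 was called, against 1.99% called higher and 4.15% lower of all distal sites in both lists. The highest stromal H3K9ac level was at a site named for HIST1H1A, at a distance of 24978 bp, with 30.6 astromal and 95.1 stromal normalised tags of H3K9ac and 46.1 and 32.0 of H3K27ac. In H3K27ac the highest stromal distal level was at a site named for HIST1H2BL (37.2 astromal and 61.6 stromal). A peak at 2381 bp from the start of H1F0, which encodes the linker histone H1.0, fell just outside the promoter window, with 23.8 in the stromal list. H3K27ac was in neither list at 9 of the 15, against 39.7% of all distal sites.

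Genes of histone production other than the histones were taken from a list of 36: 17 of transcription and mRNA processing, 18 of chaperones and CENPA, the histone H3 of centromeres. A promoter site was found for 34, and ASF1B and HJURP had none. H3K9ac was in both lists at 20 and in the stromal list alone at 14, against 50.4% and 49.3% of all promoter sites. Of the 20, 1 was called higher and none lower, against 4.61% and 3.45%. That gene was CASP8AP2, an NPAT-associated factor of histone transcription, with 17.8 astromal and 84.5 stromal normalised tags (centred ratio 1.27), in 1 and 3 peaks, but 0.16 and no call at the highest peak. NPAT itself had 61.2 and 85.9 (−0.48). The processing genes had stromal-only H3K9ac at 10 of 17 and the chaperones at 3 of 16. Highest among stromal-only sites were POU2F1, which encodes OCT1 (84.6), the chaperone gene NAP1L4 (66.0), and LSM10 of the U7 particle and CABIN1 of the HIRA complex (51.5 each).

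In H3K27ac 22 of these 34 had a peak in both lists and 10 in neither, against 61.6% and 24.6% of all promoter sites. SLBP, the stem-loop binding protein, was in the stromal list alone (5.24 normalised tags, 9 tags) and SSRP1 of the FACT chaperone in the astromal list alone (6.69, 9 tags). Of these 22, 3 were called higher and 1 lower, against 4.86% and 6.45% of all promoter sites in both lists. Called higher were the chaperone genes CABIN1 (8.92 and 19.24, ratio 1.27), ANP32E, the H2A.Z chaperone (21.6 and 43.7, 1.18), and NAP1L4 (15.6 and 28.5, 1.03). CPSF3, the endonuclease of histone mRNA 3′ ends, was called lower (21.58 and 6.98, ratio −1.52). Each gene called higher had 1 astromal and 2 stromal peaks, and CPSF3 had 2 and 1. At the highest peak none of the 4 was called: CABIN1 stood at 0.50, ANP32E at 0.34, NAP1L4 at 0.09 and CPSF3 at −0.75.

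The labelled cell type was checked on H3K9ac peaks within 2 kb of marker starts. Of the genes taken to mark the line, KRT18 and MYC had a peak in each condition and KRT8 and VIM in the stromal library alone, and CDKN2A and CDKN2B, deleted in this line, had none. Immune (4 genes) and endothelial (3 genes) markers had none. Of 9 fibroblast markers 0 had an astromal and 3 a stromal peak (COL1A1, COL1A2 and ACTA2, summed level 105.7), with the other 6 at 0. Over all promoter sites, 49.3% had H3K9ac in the stromal list alone and 0.381% in the astromal list alone. The part of fibroblasts, if any, in the values above was not tested.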

How the data were processed

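ChIP-seq libraries of H3K9ac and H3K27ac, 1 per mark and condition, were used, and the 4 inputs were not used here. The submitters' processing notes name CASAVA 1.8.2, Bowtie, HOMER and build hg19. H3K27ac peaks passed an FDR of 0.001, 4-fold over input and over the surrounding 10000 bp, each with a Poisson p-value of 1.00e-04, per the file headers. For H3K9ac no threshold is given in the sources used here. The signal was the tag count per peak that the authors had normalised to 10000000 tags. Raw tag counts were deposited for astromal H3K27ac, and were elsewhere computed from the signal and the depth. For H3K9ac the depth came from the even steps of the deposited values, all within 0.1 tag of a whole number. The fold ratio over input or the local region was the authors' own. The authors' fraction of tags in focus and score were not used for results.

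A site joined H3K9ac peaks with centres within 1 kb, and also peaks within 2 kb of starts that lay within 1 kb of each other or named 1 transcript. The join by starts was chosen after the data were seen, and joining by distance alone is an alternative. Depth was 13453902 astromal and 17190695 stromal tags for H3K27ac. Computation used Python 3.11.15, pandas 2.3.3 and scipy 1.17.1. On simulated counts with peaks held fixed, 100% of 4-fold rises and 70% of 4-fold falls were called for H3K9ac (100% and 88% for H3K27ac), 46% and 28% of 2-fold ones (48% and 46%), and 2.43% (1.29%) of 5562 and 7533 unchanged sites.

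Members and lists were chosen with earlier results of these data known. Named are sites called in either mark, sites of 1 list with at least its median tags per peak, the 5 highest stromal levels per mark and every variant gene. Of the production genes, those called or in 1 H3K27ac list, and the 3 highest stromal-only H3K9ac levels are named. A further marker of the line is not reported here.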

Additional observations from a re-analysis of the deposited data

How the results depend on the processing

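Of 11 alternatives, 10 were planned and 1, joining peaks by distance alone, was added after seeing the data. Of the comparisons of site counts, call counts and medians under them, 134 of 156 stayed within a set limit. For counts it was 1.5 times. For medians it was the median half-width of the counting intervals divided by the root of the site number, which is no spread between sites or libraries. Some could not change: tags per bp shifted all H3K27ac ratios alike before centring, and the highest peak and no centring left peak presence as it was. Each site was followed by its highest H3K9ac peak. No called ratio changed sign where the site with that peak stayed in both lists, and nothing else was compared. With peaks joined by distance alone, this left out HIST1H2AK with HIST1H2BN. Its highest peak then fell in a stromal-only site, while its HIST1H2BN part, in both lists, was not compared. With the highest peak in place of the sum, the calls became 0 higher and 0 lower in H3K9ac and 0 higher and 0 lower in H3K27ac, and the clustered H3K9ac median −0.0945. Without centring, H3K9ac had 11 higher and 0 lower, against 45.5% and 0.0775% of all promoter sites in both lists, with medians of 0.54 (clustered) and 1.53 (variant). Joining over 2 kb left 1 astromal-only H3K9ac site. With H3K27ac peaks within 1 kb the variant median was −0.41. With H3K27ac peaks at least 8-fold over input and 6-fold over the local region, 8 sites had it in both lists, 2 in the stromal list alone, 2 in the astromal list alone and 29 in neither (26 clustered, 3 variant), against 32.4% in neither of all promoter sites, with 0 higher and 0 lower. Joined by distance alone, 20 sites were stromal-only in H3K9ac, 0 were called higher, and 2 variant sites lacked H3K27ac. The H3K27ac call at H1FX was also lost without centring (0.97), with the same lowest level required in both lists (0.25) and by distance alone (0.22). No paired analysis was possible because each group held 1 library. Depth limits the astromal H3K9ac values most, at a median of 9 tags per peak.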
